A study of Ovis aries with 16 samples.

Results

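The let-7 family of miRNAs was described in the testis of well-fed and underfed male sheep, together with the sheep homologue of miR-98, which belongs to the same family. Every miRNA whose name starts with oar-let-7 was taken (oar-let-7a, oar-let-7b, oar-let-7c, oar-let-7d, oar-let-7f, oar-let-7g and oar-let-7i, mostly written below without the prefix that marks the sheep), and the predicted miRNA that the study pairs with miR-98 was added. Predicted miRNAs are given here as candidate-miR with the authors' number, so the miR-98 homologue is candidate-miR-144. This gave 8 members of the 271 miRNAs listed, of which 103 were known and 168 were predicted. The predicted homologue of let-7e, candidate-miR-143, does not carry a let-7 name in the files and is treated as a relative.

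The samples were testis tissue from 16 sexually mature Merino rams, with 1 small RNA library per ram. Of these, 8 well-fed males were on a diet meant to raise body mass by 10% over 65 days, and 8 underfed males were on a diet meant to change it by -10% over the same 65 days. All males ate oaten chaff and lupin grain and differed in the amount offered. RNA came from frozen pieces of testis with no sorting of cells, so germ cells, Sertoli cells, Leydig cells, peritubular cells and blood were measured together, and fewer cells of a type cannot be told apart from less RNA per cell. Levels are CPM, the reads of a miRNA scaled to a fixed total of miRNA reads per library, as deposited.

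The let-7 miRNAs are held to be among the most conserved miRNAs of animals. Their members share a seed, the short stretch near the 5′ end that pairs with target mRNAs, and they repress growth genes such as HMGA2 and members of the RAS family. LIN28 proteins bind let-7 precursors and block their maturation, and in mouse testis LIN28 marks undifferentiated spermatogonia. Family members come from separate hairpins, several of them in clusters. In mammals miR-98 and a let-7f hairpin lie together within HUWE1, let-7a, let-7d and another let-7f hairpin lie together, and let-7c lies beside miR-99a. In the RefSeq gene list for sheep (assembly ARS-UI_Ramb_v3.0), 7 of the 8 members matched a gene by symbol. There MIRLET7A and MIRLET7D were neighbours within ZNF169, MIRLET7C neighboured MIR99A, MIRLET7F lay within HUWE1 and MIRLET7G lay within WDR82.

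Libraries held between 17163 and 1058985 miRNA reads (median 338092), as recovered from the CPM steps. Well-fed replicate 5 (17163 reads), underfed replicate 6 (27797 reads) and underfed replicate 8 (50099 reads) were the 3 libraries under 100000 miRNA reads. Taking 3 reads as the smallest number shown, the lowest measurable level was 175 CPM in well-fed replicate 5 and 2.83 CPM in the deepest library, counting error only. All 8 members passed the filter of CPM above 5 in at least 8 of 16 libraries, as did 244 of the 271 miRNAs. The thinnest member value was that of let-7d in underfed replicate 6, where 4 reads gave 144 CPM (exact 95% interval 39.2 to 368 CPM).

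The family was abundant. Its 8 members together made up a mean of 9.20% ± 1.79 of the miRNA reads in well-fed males and 8.96% ± 1.98 in underfed males (SD, n = 8 each). The well-fed males ran from 6.47% through a median of 10.2% to 10.8%, and the underfed males from 7.68% through a median of 8.24% to 13.6%. The means differed by -0.25 percentage points, less than the SD of either diet, and no test was run on this sum. The highest share of all 16 males was that of underfed replicate 1 (13.6%, Wilson 95% interval 13.4% to 13.8%), and the other underfed males did not exceed 9.52%. The sign of this difference was not stable, at 0.24 points without the 3 shallow libraries and 1.01 points (11.6% against 12.6%) with miR-10b, the most abundant miRNA, left out of the total. As a share of miRNA and piRNA reads together the mean was 3.38% ± 0.842 for the well-fed and 5.39% ± 0.918 for the underfed diet, a difference of 2.01 percentage points. The number of miRNA reads per piRNA read also moved with diet, from 0.355 to 0.908 in well-fed males and from 0.517 to 3.13 in underfed males, and its part in that difference was not tested.

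The level of the members spanned a wide range. oar-let-7a was the highest, with a mean of 38279 CPM over all males and rank 4 of the 271 miRNAs. Let-7f followed at 22262 CPM (rank 10), and these were the leading pair in all males. Let-7i (9772 CPM), let-7b (8531 CPM), let-7g (5772 CPM) and let-7c (4793 CPM) formed a middle range, at ranks 20 to 31. The miR-98 homologue (820 CPM, rank 63) and let-7d (576.7 CPM, rank 76) were far lower.

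Some steps in that order held in every male and others did not. Let-7f exceeded let-7i in 16 of 16 males, and let-7c exceeded the miR-98 homologue in 16 of 16. Let-7a exceeded let-7f in 15 of 16, the exception being underfed replicate 6, where the log2 ratio of let-7a to let-7f was -0.02. The log2 ratio of let-7i to let-7b was 0.25 ± 0.38 (SD), smaller than its spread between males. Let-7i was the higher in 11 of 16 males (7 well-fed and 4 underfed). The steps from let-7b to let-7g (14 of 16 males, log2 ratio 0.50 ± 0.53), from let-7g to let-7c (13 of 16, 0.33 ± 0.46) and from the miR-98 homologue to let-7d (12 of 16, 0.60 ± 0.99) were likewise smaller than their spread. That spread describes single males and not the error of a mean, and no test was run on these steps.

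**Figure D1:**
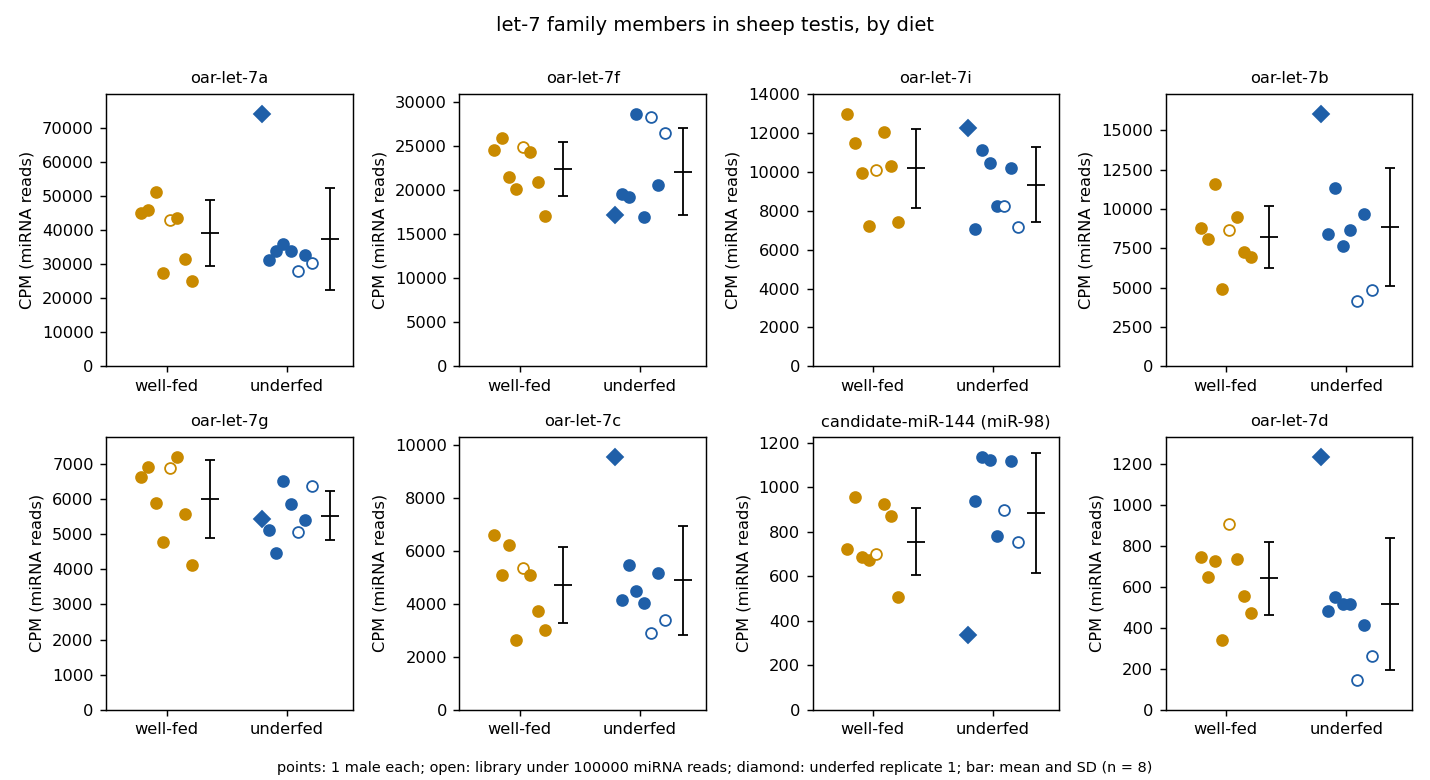
CPM of each of the 8 members (vertical axes, linear, from 0) in each male of both diets, ordered by mean level. Points are males, open points are the 3 libraries under 100000 miRNA reads, the diamond is underfed replicate 1, and bars give the mean and SD (n = 8). The diets overlapped for all members, and underfed replicate 1 was the highest of 16 males for let-7a, let-7b, let-7c and let-7d and the lowest for the miR-98 homologue.

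The deposited CPM of the diets overlapped for all 8 members. For comparison, the values of the 8 males of each diet did not overlap for 5 of the 244 tested miRNAs (2.05%).

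oar-let-7a, the most abundant member, ran in well-fed males from 25182 through a median of 43317 to 51128 CPM, with a mean of 39098 ± 9614. In underfed males it ran from 27953 through a median of 33234 to 74023 CPM, with a mean of 37459 ± 14974. Underfed replicate 1 alone held the top value, and the other underfed males lay at or below 35849 CPM, within the well-fed range. oar-let-7f ran from 17016 through 22863 to 25972 CPM in well-fed males and from 16931 through 20041 to 28624 CPM in underfed males. For let-7f, 3 underfed males lay above all well-fed males and 1 lay below them all, and of those 3 above, 2 were shallow libraries.

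oar-let-7i ran from 7208 through 10201 to 12983 CPM in well-fed and from 7072 through 9236 to 12260 CPM in underfed males, so the ranges nearly coincided. oar-let-7g ran from 4121 through 6265 to 7202 CPM in well-fed males, and from 4465 through 5427 to 6527 CPM in underfed males. It was the only member with 4 well-fed males above all underfed males. It also had the smallest spread among underfed males (coefficient of variation 12.5%).

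oar-let-7b ran from 4932 through 8378 to 11571 CPM in well-fed males and from 4119 through 8520 to 16022 CPM in underfed males. oar-let-7c, the partner of miR-99a, ran from 2609 through 5076 to 6614 CPM in well-fed and from 2878 through 4310 to 9528 CPM in underfed males. Both had their highest value in underfed replicate 1, and among underfed males both had their lowest in underfed replicate 6 and the next lowest in underfed replicate 8, the shallow underfed libraries.

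The miR-98 homologue, the one predicted member, ran from 506.8 through 711.2 to 955.1 CPM in well-fed males (mean 754.9 ± 150.6). In underfed males it ran from 335.3 through 919.5 to 1134 CPM (mean 885.2 ± 269.1). Its lowest value was in underfed replicate 1, and the next lowest underfed male was at 751.9 CPM. Thus 3 underfed males lay above all well-fed males and 1 lay below them all. oar-let-7d, the rarest member, ran from 340.7 through 684.6 to 903.1 CPM in well-fed and from 143.9 through 499.4 to 1230 CPM in underfed males. It had the widest spread among underfed males (coefficient of variation 62.8%). Its extremes there were underfed replicate 6 at the bottom and underfed replicate 1 at the top.

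Diets were then compared by limma on log2(CPM + 1), with CPM first scaled between libraries by TMM (trimmed mean of M-values), a factor set by the bulk of the miRNAs. A call was a Benjamini-Hochberg FDR under 0.05 over all 244 tested miRNAs, and DE also required FC, the ratio of mean deposited CPM (underfed/well-fed), under 0.67 or above 1.5. The factors differed by diet. They ran from 1.078 to 1.387 in well-fed males and from 0.698 to 1.26 in underfed males, and underfed replicates 1 (1.26) and 8 (1.004) were the 2 underfed males above 1. On the TMM scale the underfed values were therefore higher relative to the well-fed ones than as deposited. For the miR-98 homologue, the well-fed males then ran from 403.1 through 601.8 to 877.6 and the underfed males from 266.1 through 1251 to 1591 scaled CPM, with 6 underfed males above all well-fed males and underfed replicate 1 below them all. For let-7a they ran from 20031 through 35471 to 42057 and from 30274 through 43471 to 58751 scaled CPM, with 5 underfed males above all well-fed males. The ranges of the diets still overlapped.

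None of the 8 members was called by limma, while 15 of 244 miRNAs were (6.15%) and 8 of 244 were DE (3.28%). At an unadjusted p under 0.05, 6 of 8 members passed, all higher in underfed males, against 63 of 244 in either direction (25.8%) and 35 of 244 higher in underfed males (14.3%). With voom, limma's model for read counts, on the recovered reads, 1 of 8 was called, let-7c with an FDR of 0.0499, against 47 of 244 in either direction (19.3%) and 23 higher in underfed males (9.43%). The log2 fold change was above 0 for 7 of 8 members and for 115 of 244 miRNAs (47.1%). Its median was 0.41 over the members and -0.08 over all tested. The members share libraries and can share reads, so they are not replicates of one another.

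The largest difference was that of the miR-98 homologue, with a log2 fold change of 0.65 ± 0.30 (SE) and limma FDR of 0.170. Let-7c (0.50 ± 0.21, limma FDR 0.142) and let-7b (0.50 ± 0.22, limma FDR 0.163) came next. Let-7f (0.44 ± 0.19), let-7a (0.39 ± 0.18), let-7g (0.37 ± 0.17) and let-7i (0.35 ± 0.17) had limma FDR from 0.151 to 0.201. Let-7d had -0.02 ± 0.30 and a limma FDR of 0.971. Apart from let-7d, these members lay between 0.35 and 0.65, and their standard errors overlapped. FC from deposited CPM was between 0.802 for let-7d and 1.17 for the miR-98 homologue, inside the DE limits for every member.

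The direction rested on the scaling. On the deposited CPM with no TMM, let-7a (-0.09), let-7f (-0.04), let-7g (-0.10), let-7i (-0.12) and let-7d (-0.49) had log2 fold changes below 0, let-7b and let-7c were at 0.03 and the miR-98 homologue at 0.17, and 0 of 8 passed by limma at FDR under 0.05 or at an unadjusted p under 0.05 (at that FDR 39 of 244 miRNAs were called, of which 1, or 0.410% of those tested, was higher in underfed males). There the median of all tested miRNAs was -0.51. With miRNAs and piRNAs scaled to a common total, all members were above 0 and 7 of 8 were called and DE, from 1.30 for let-7i to 1.60 for the miR-98 homologue, while let-7d was at 0.93 with a limma FDR of 0.0799. That scaling moved the median of all tested miRNAs to 0.81 and called 85 of 244 (34.8%), with 60 of 244 DE. All 85 calls were higher in underfed males, so under this scaling the direction did not set the members apart. FC there was taken from the jointly scaled values. All 8 members lay above the median of all tested miRNAs in each of the 3 scalings, and the median of the members exceeded it by 0.49 with TMM, 0.44 with no TMM and 0.55 with joint scaling. A scaling applies 1 factor per library and so shifts all miRNAs nearly alike, and the 3 comparisons are not independent. With no TMM let-7d was at -0.49, against the median of -0.51. Without underfed replicate 1, 7 of 8 members lay above the median (TMM scale). The same count was found without underfed replicate 2 or 4, or well-fed replicate 4, 7 or 8, each left out alone.

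**Figure D2:**
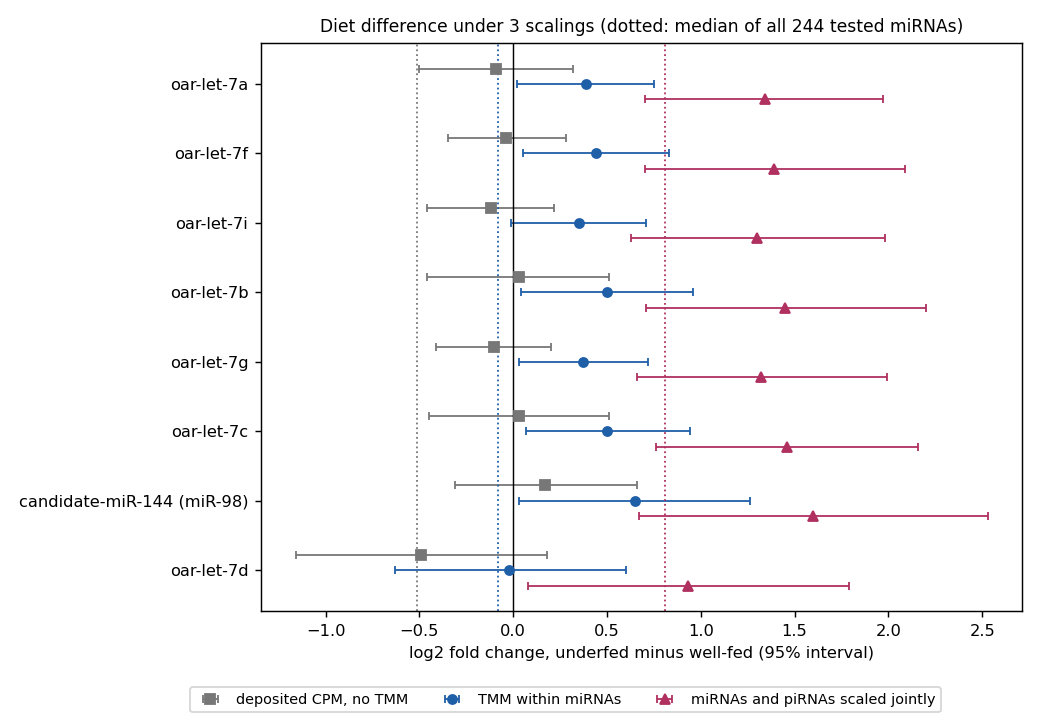
Log2 fold change (underfed minus well-fed, horizontal axis) with its limma 95% interval for each member under 3 scalings, with the median of the 244 tested miRNAs as a dotted line of the same colour. Members shifted together with the dotted line, and let-7d stayed nearest to it.

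Germ cell markers differed between the diets. The summed CPM of 3 miRNAs typical of meiotic and later germ cells (homologues of miR-34c, miR-34b and miR-449a) ran from 47497 through 64054 to 71079 in well-fed males and from 10978 through 21506 to 58155 in underfed males. All 3 were lower in underfed males and 2 of 3 were called by limma (3 of 3 by voom). This direction too rested on the scaling, since with joint scaling the 3 had log2 fold changes of 0.05, 0.15 and 0.18 and 0 of 3 were called by limma (FDR 0.659 to 0.914). With no TMM all 3 were called and lower, from -1.38 to -1.25. The underfed males with the highest sums were replicates 8 (58155) and 1 (44629). Smooth muscle and peritubular markers (miR-143 and the miR-145 homologue) summed to 153985 to 210989 CPM in well-fed and 138660 to 215633 in underfed males, with 0 of 2 called by limma (2 of 2 at an unadjusted p under 0.05, and 2 of 2 by voom). Blood markers (homologues of miR-486, miR-142 and miR-155) summed to 3293 to 9150 and 2595 to 9186 CPM, with 0 of 3 called by limma (0 of 3 at an unadjusted p under 0.05, and 0 of 3 by voom). With joint scaling both smooth muscle markers (1.47 and 1.57) and 2 of 3 blood markers (1.21 and 1.20) were called by limma and were higher in underfed males. None of these 8 markers was at 0 in any library. Their part in the levels of the let-7 members was not tested.

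Single libraries decided calls among the members. Without underfed replicate 1, 3 of 8 members were called by limma, namely the miR-98 homologue (0.92 ± 0.21, FDR 0.00488), let-7f (0.57 ± 0.16, FDR 0.0137) and let-7g (0.46 ± 0.15, FDR 0.0379), against 45 of 239 miRNAs (18.8%), or 29 higher in underfed males (12.1%). Without underfed replicate 8, let-7b was called (0.64 ± 0.20, limma FDR 0.046), against 27 of 240 (11.2%), or 15 higher in underfed males (6.25%). Without the 3 shallow libraries, let-7b (0.82 ± 0.18, limma FDR 0.00622) and let-7c (0.74 ± 0.22, limma FDR 0.0253) were called, against 42 of 247 (17.0%), or 21 higher in underfed males (8.50%), and the miR-98 homologue was at 0.66 ± 0.34 with an FDR of 0.167. Thus the members that passed differed with the libraries left out. When those 3 and underfed replicate 1 were left out together, 6 of 8 were called, against 89 of 251 (35.5%), or 46 higher in underfed males (18.3%), and let-7a and let-7d were not. In that set of 12 libraries the miR-98 homologue was at 1.04 ± 0.22 (limma FDR 0.000856). Over all 27 alternatives its log2 fold change ran from 0.17 to 1.60 and its FDR from 0.000636 to 0.629. With limma's sample weights over all 16 libraries, 5 of 8 were called, against 98 of 244 (40.2%), or 49 higher in underfed males (20.1%). No member was DE in the fits with left-out libraries or with sample weights. Among all miRNAs, 22 of 239 were DE without underfed replicate 1 and 14 of 240 without underfed replicate 8. The DE count was 25 of 247 without the 3 shallow libraries, 51 of 251 in the 12 libraries and 52 of 244 with sample weights. In these fits FC came from deposited CPM without TMM, while log2 fold change and FDR came from TMM-scaled values. FC was 1.34 for the miR-98 homologue in the 12 libraries and 1.26 for let-7b without the 3 shallow libraries.

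The makeup of the family showed which members set underfed replicate 1 apart. Let-7a was on average 41.5% ± 4.47 of the family sum (SD, n = 16), let-7f 25.2% ± 5.51, let-7i 10.8% ± 1.28, let-7b 9.31% ± 2.16, let-7g 6.47% ± 0.945 and let-7c 5.16% ± 0.921. The miR-98 homologue made up 0.939% ± 0.283 and let-7d 0.617% ± 0.184. In underfed replicate 1, let-7a took 54.4% of the family, the highest of 16 males, while let-7f (12.7%), let-7g (4.01%) and the miR-98 homologue (0.246%) were each the lowest of 16. Its ratio of miRNA to piRNA reads was 0.517, also the lowest among underfed males, and its depth was 149142 miRNA reads. Underfed replicate 6 stood at the other end. Let-7f took 36.5% there and let-7a 36%, and let-7b (5.3%), let-7c (3.71%) and let-7d (0.185%) were at their lowest of all males, at a depth of 27797 miRNA reads. The part of depth in this makeup was not tested.

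**Figure D3:**
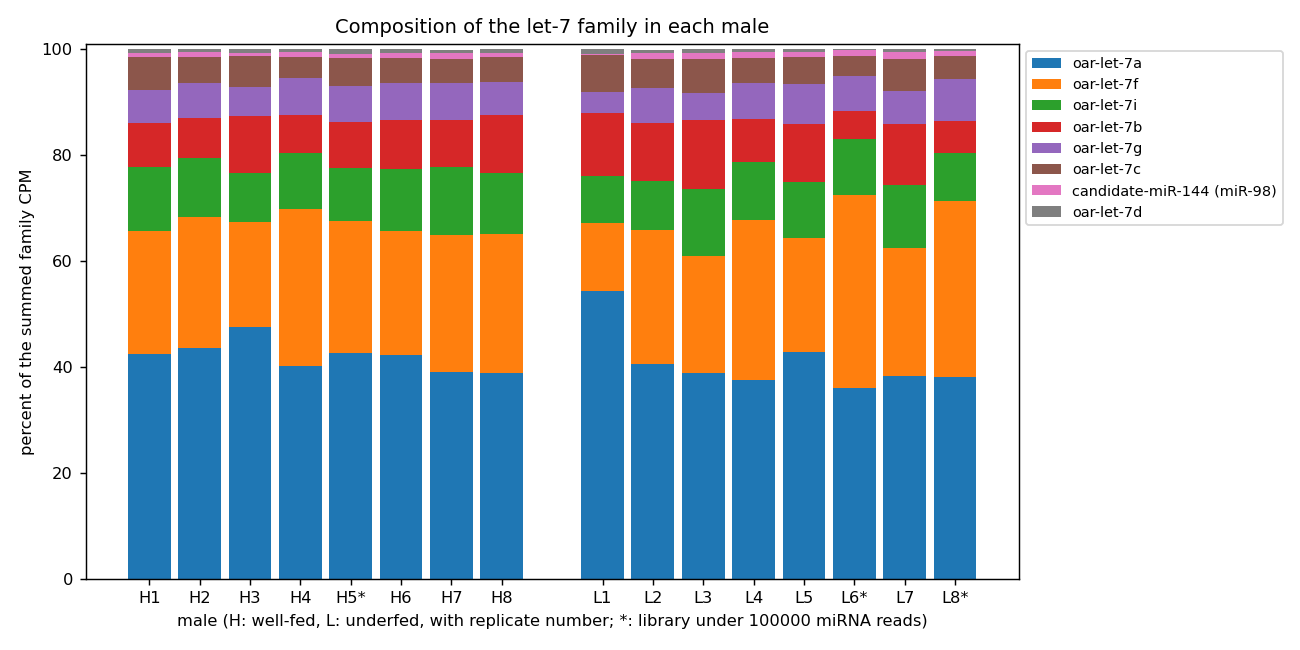
Stacked shares of the 8 members in the summed family CPM (vertical axis, percent) for each male, with H for well-fed, L for underfed and an asterisk for the 3 shallow libraries. Let-7a was the largest share in all males but L6 and reached 54.4% in L1, where let-7f was at 12.7%.

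Ratios within a library do not depend on the scaling between libraries, and 3 were compared between diets by a two-sided exact permutation test over 12870 arrangements of the males, with p adjusted over the 3. The first set let-7c against its cluster partner miR-99a. The log2 ratio ran from 1.10 through 2.10 to 2.62 in well-fed males (mean 2.05 ± 0.46) and from -1.55 through 1.71 to 2.29 in underfed males (mean 1.33 ± 1.23). The difference was -0.72 (exact permutation p = 0.102, adjusted 0.305). Underfed replicate 6 was the lowest at -1.55, where miR-99a stood at 8418 CPM, and the next lowest underfed male was at 1.17, within the well-fed range. Without underfed replicate 6 the difference was -0.31 (exact permutation, adjusted p = 0.396), and without the 3 shallow libraries it was -0.24 (exact permutation, adjusted p = 0.554).

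The second ratio set let-7d against let-7f, which the study places in 1 cluster. The files give 1 let-7f value, and since mature let-7f can come from more than 1 hairpin, this ratio and the next cannot tell a cluster partner from the other let-7f hairpin. It ran from -5.88 through -5.11 to -4.79 in well-fed males and from -7.61 through -5.49 to -3.81 in underfed males. The means were -5.17 ± 0.34 and -5.63 ± 1.14, a difference of -0.46 (exact permutation p = 0.311, adjusted 0.321). Without the 3 shallow libraries the difference was 0.10 (exact permutation p = 0.784). With underfed replicate 1 left out as well it was -0.16 (exact permutation p = 0.419). Without underfed replicate 6 alone it was -0.17 (exact permutation p = 0.621), so the sign of the difference depended on which libraries were left out. Underfed replicate 1 lay above all well-fed males, and underfed replicates 6 and 8 lay below them all.

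The third ratio set the miR-98 homologue against let-7f. It ran from -5.15 through -4.93 to -4.59 in well-fed males and from -5.68 through -4.55 to -4.08 in underfed males. The means were -4.90 ± 0.20 and -4.69 ± 0.54, a difference of 0.21 (exact permutation p = 0.321, adjusted 0.321). For this ratio 4 underfed males lay above all well-fed males, and underfed replicate 1 lay below them all. Without underfed replicate 1 all 3 ratios passed, at -0.85, -0.72 and 0.35 in the order above (exact permutation, adjusted p = 0.0483 for each). Over 21 alternatives the adjusted p ran from 0.0483 to 0.554 for the first, from 0.0483 to 0.784 for the second and from 0.0114 to 0.554 for the third.

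**Figure D4:**
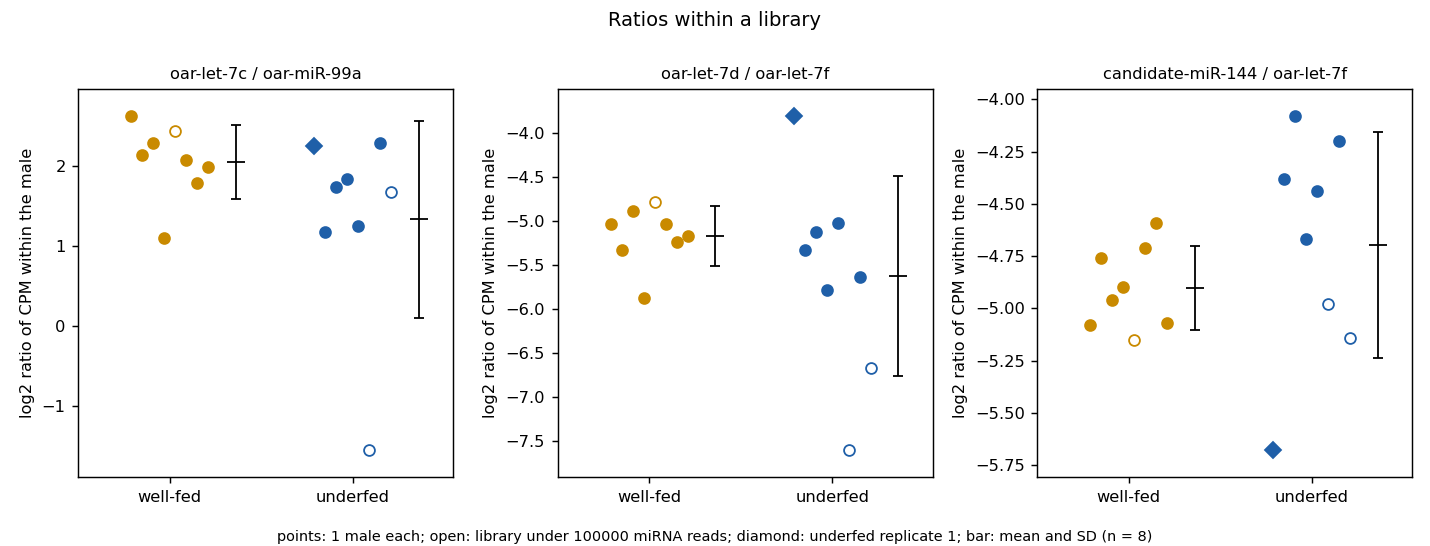
Log2 ratio of CPM within each male (vertical axes) for the 3 pairs, by diet, with open points for the 3 shallow libraries, a diamond for underfed replicate 1 and bars for the mean and SD (n = 8). Underfed replicate 6 was lowest in the first 2 panels, and underfed replicate 1 was highest in the second and lowest in the third.

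Members also differed in how they varied over the 13 males with at least 100000 miRNA reads. These correlations of log2(CPM + 1) are descriptions over points that share a library total. On deposited CPM, let-7a varied closely with let-7d (Pearson's r = 0.93), let-7c (0.90) and let-7b (0.78), and the predicted let-7e homologue, candidate-miR-143, joined them (0.82 with let-7a). Let-7f varied most with let-7g (0.74) and the miR-98 homologue (0.54). The members did not fall into separate groups, since let-7g also had r = 0.53 with let-7a and 0.26 with the miR-98 homologue. The value was 0.16 for let-7a with let-7f and -0.41 for let-7a with the miR-98 homologue. Both rested in part on 1 library, since without underfed replicate 1 they became 0.62 and 0.21. The closer values rested on it in part as well. Without that male, let-7a had r = 0.61 with let-7b, 0.84 with let-7c, 0.85 with let-7d and 0.79 with let-7g. Let-7b with let-7d then went from 0.78 to 0.62. The values also rested on the scaling. On the TMM scale the miR-98 homologue and let-7f had r = 0.92, both with and without underfed replicate 1.

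Let-7d varied with let-7a, its RefSeq neighbour, and less closely with the pooled let-7f value. The SD of the log2 ratio over the 13 males was 0.18 for let-7a with let-7d and 0.51 for let-7d with let-7f. Over the 13 males the tightest pairs were let-7a with let-7d and let-7f with let-7g (SD 0.18 each). The loosest there was let-7d with the miR-98 homologue (SD 0.84).

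**Figure D5:**
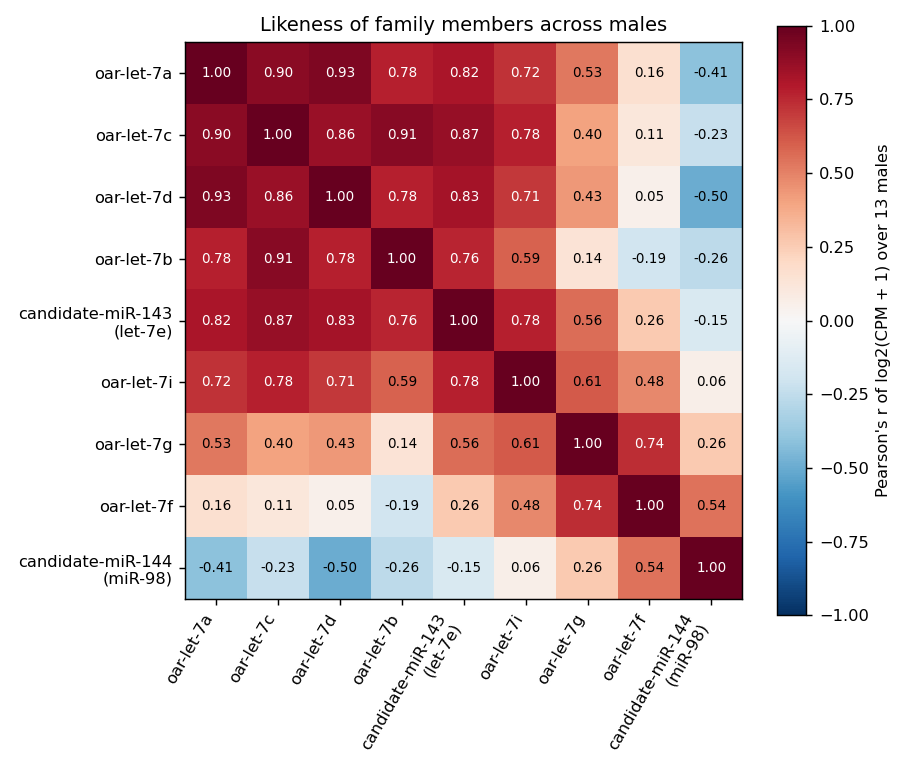
Pearson's r of log2(CPM + 1) on deposited CPM between family members and the let-7e homologue over the 13 males with at least 100000 miRNA reads (colour and printed value). Let-7a, let-7b, let-7c, let-7d and the let-7e homologue correlated at 0.76 or more with each other, and the miR-98 homologue was at or below 0.26 with all but let-7f. Without underfed replicate 1 (not drawn), let-7b was at 0.61 with let-7a and 0.62 with let-7d.

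The miRNAs outside the 8 members that were most like let-7a and the miR-98 homologue were sought among 118 miRNAs with a mean above 100 CPM, by r on the TMM scale over the same 13 males. For let-7a they were the let-7e homologue candidate-miR-143 (r = 0.81), miR-125b (0.80) and candidate-miR-47 (0.72). For the miR-98 homologue they were miR-26b (0.97), candidate-miR-117 (0.93) and miR-10b (0.91). On deposited CPM the values were 0.82, 0.76 and 0.73 for the first set and 0.92, 0.86 and 0.76 for the second.

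Relatives and cluster partners of the family were compared in the same fit, and 1 of 4 was called. MiR-99a, the partner of let-7c, ran from 760.2 through 1120 to 1279 CPM in well-fed males and from 1058 through 1658 to 8418 CPM in underfed males, with 5 underfed males above all well-fed males. It rose in underfed males (log2 fold change 1.22 ± 0.33, limma FDR 0.0329, FC 2.16, DE). Without the 3 shallow libraries, which include underfed replicate 6, its difference was 0.98 ± 0.20 (limma FDR 0.00395) and its FC 1.42, inside the DE limits. The call was lost with no TMM (0.75, limma FDR 0.105). MiR-125b, also listed among the relatives and cluster partners, was at 0.56 ± 0.17 (limma FDR 0.0527). It was called in 8 of 27 alternatives, among them voom (0.60, FDR 0.0227), without underfed replicate 1 (0.53, limma FDR 0.0355), without underfed replicate 8 (0.67, limma FDR 0.00724) and without the 3 shallow libraries (0.72, limma FDR 0.00811), and its limma FDR over all of them ran from 0.00056 to 0.779. The let-7e homologue was at 0.32 ± 0.18 (limma FDR 0.262), and candidate-miR-6, the miR-100 homologue, at 0.11 ± 0.24 (limma FDR 0.763).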

How the data were processed

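The authors sequenced small RNA from testis, removed other non-coding RNAs, predicted miRNAs with miRDeep2 from pooled reads on OAR3.1 (Oar_v3.1, with CASAVA 1.8 named in the submitters' processing notes), counted reads of 18 to 25 nt as miRNAs and 26 to 32 nt as piRNAs, and tested them with edgeR. The deposited signal is CPM, with each class divided by its own total. Mature let-7a differs by a single base from let-7c and by another from let-7f, so reads may have been split between these members.

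Reads were recovered from the CPM steps. Of the low miRNA values, 93.2% to 97.6% were whole reads and 98.6% to 100% were multiples of 0.5 reads (tolerance 0.02 reads). TMM (own code, 30% and 5% trimmed), limma 3.58.1 in R 4.3.3 (trend, pseudocount 1 CPM), numpy 2.4.6 and scipy 1.17.1 were used, and the fit was tested on simulated data. Because the values are CPM, limma and not a count test was the main test. All males were separate animals, grouped by diet labels, and no pair within a diet held identical values. All members were named, with 4 relatives fixed by name and the 3 miRNAs most like let-7a and candidate-miR-144. Members and lists were chosen with earlier results of these data known. Alternatives were other scalings, pseudocounts of 0.5 and 5 CPM, no filter, voom, robust empirical Bayes, a replicate block and left-out libraries. Sample weights and the set of 12 libraries were added after seeing the data. Mature sequences were not used here.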

Additional observations from a re-analysis of the deposited data

Results flagged for a closer look

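In groups of 8 males, 8 of 48 groups tested held a male whose gap to the nearest other was above Dixon's 95% critical value for the group's range, and chance flags about 1 in 20. The groups share males and overlapping values, so the flags are not independent and their number cannot be set against that rate. Underfed replicate 1 gave 6 of the 8. It lay above the other underfed males for let-7a (74023 CPM, next 35849), let-7c (9528 CPM, next 5457) and let-7d (1230 CPM, next 547.2), for the family's percent of miRNA reads (13.61%, next 9.524%) and for let-7a as a percent of the family (54.4%, next 42.88%). It lay below them for candidate-miR-144 as a percent of the family (0.2464%, next 0.9445%). Underfed replicate 6 gave the other 2, with miR-99a at 8418 CPM (next 2005) and the log2 ratio of let-7c to miR-99a at -1.55 (next 1.17).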

How the results depend on the processing

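The number of members called by limma was 0 in 20 of 27 alternatives. It was 7 with joint normalization, 2 without the shallow libraries, 1 with voom, 5 with sample weights and 6 in the set of 12 libraries, the last 2 chosen after seeing the data, and 0 to 3 when 1 male was left out (3 without underfed replicate 1, 1 without underfed replicate 8). Among members, log2 fold changes that turned below 0 with no TMM were -0.09 for let-7a, -0.04 for let-7f, -0.10 for let-7g and -0.12 for let-7i. Among relatives they were -0.15 for candidate-miR-143 and -0.36 for candidate-miR-6. Let-7d was below 0 in the main fit already and was at -0.49 with no TMM. With 1 male left out, candidate-miR-6 ran from -0.07 (without well-fed replicate 8) to 0.23 and was also below 0 without underfed replicate 2 (-0.04). Let-7d was above 0 in 11 alternatives, at 0.93 (joint), 0.47 (without the shallow libraries), 0.19 (voom), 0.25 (sample weights), 0.37 (12 libraries) and, with 1 male left out (-0.16 to 0.15), without well-fed replicates 1 (0.01), 2 (0.01), 5 (0.06) or 6 (0.03) or underfed replicates 6 (0.15) or 8 (0.12).

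The ratio of let-7d to let-7f was 0.10 without the shallow libraries, -0.16 in 12 libraries and -0.72 to -0.17 with 1 male left out. That of let-7c to miR-99a was -0.86 to -0.31 with 1 male left out and -0.24 without the shallow libraries, and that of candidate-miR-144 to let-7f was 0.12 to 0.35, with 0.52 in 12 libraries. The family share differed by 2.01 points as a percent of miRNA and piRNA reads, by 1.01 with miR-10b out of the total, by 0.24 without the shallow libraries, and by -0.91 to -0.02 points with 1 male left out. MiR-99a lost its call in 8 alternatives, with limma FDR up to 0.105, and miR-125b gained one in 8, including the replicate block (limma FDR 0.0245). The number of all miRNAs called ran from 4 to 98, against 15. The cause of these changes was not tested.

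Replicate numbers come from the labels, and no source pairs the males. Deviations of same-numbered males correlated at 0.0472 on average (-0.18 to 0.28), within the range of the 56 pairs of different number (mean 0.00582, -0.50 to 0.40). Of the same-numbered pairs 3 of 8 were over 0.1, and 5 of 16 males correlated best with their own number. With the replicate block, 0 members and 15 of 244 miRNAs were called by limma. There 7 of 8 members had an unadjusted p under 0.05, against 66 of 244 miRNAs in either direction. Depth limits let-7d most, with 4 reads in underfed replicate 6.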
